A study of Mus musculus with 12 samples.

Results

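A lung metastasis of NR-S1, a transplantable squamous cell carcinoma of the mouse, was compared with a primary tumour of the same carcinoma, where the primary tumour had received carbon ions in both cases. No array held these 2 RNAs together. Each had been hybridised against the RNA of an unirradiated primary tumour, so the comparison was built for each dye orientation as the log2 ratio of the metastasis over the unirradiated primary minus the log2 ratio of the irradiated primary over the same RNA. The differences of the 2 orientations were averaged. It rests on 4 of the 12 arrays of the series, and 16178 of 27670 genes or other features on the array were measured, which means that the metastasis, the irradiated primary or both gave a signal that the scanner software marked as well above background on both arrays of that RNA.

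Both RNAs came, per the labels, from tumour cells selected by laser microdissection in male C3H/HeMsNrs mice that carried NR-S1 in the hind leg. The carbon metastasis was taken from the lung 2 weeks after the leg tumour had reached 7.5 mm and had been given 5 Gy of carbon ions; the metastasis itself was not the target of the beam. The carbon primary was the leg tumour itself, taken 1 week after the same dose at the same size, from other mice. The unirradiated primary, present on all 4 arrays, was a leg tumour of the same strain taken 1 week after 7.5 mm. The labels mark every RNA as clone 1 and state neither age, nor the number of mice, nor pooling. Site, time after irradiation and animal therefore differ together between the carbon metastasis and the carbon primary and cannot be told apart.

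There was 1 RNA for each condition, and the 2 arrays of a dye swap are technical repeats, so no test was possible and no p-value is given. Calls of higher or lower required a difference of at least 1 on the log2 scale (2-fold) with the same sign in both orientations. Each SD given after a difference is over the 2 orientations and measures array error, not the spread between animals. By this rule 1112 genes (6.87%) were higher in the carbon metastasis than in the carbon primary and 313 (1.93%) were lower. Of these, 330 and 58 passed 4-fold. In 210 of the genes called higher the primary was well above background on neither array, so they counted as measured through the metastasis alone. In 12 of those called lower the metastasis was well above background on neither array. With both carbon RNAs required well above background, 816 of 14439 genes were higher and 280 lower. The median difference of all measured genes was 0.036, 90% of genes lay between -0.70 and 1.31, and the median SD was 0.071. The 2 arrays of the carbon metastasis lay on one slide and the 2 of the carbon primary on another, so slide and group cannot be told apart, although each ratio was taken within an array. A second route through the gamma-irradiated primary, which replaces the arrays of the carbon primary over the unirradiated primary, gave differences whose deviation from the main ones had an SD of 0.074 across genes. It shares the metastasis arrays with the main route, so it cannot show an error of those arrays. Single genes moved further, Igtp from -2.69 to -3.48 and Ifit3 from -0.10 to -1.02.

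A metastasis meets the cells of the organ it grows in, and RNA from dissected tissue can include RNA of neighbouring cells. Lung holds alveolar cells that secrete surfactant and airway cells that secrete secretoglobins, while a leg tumour borders on skeletal muscle. Interferon, released by lymphocytes and by infected or damaged cells, switches on a set of genes for antiviral defence and antigen presentation through transcription factors that bind interferon-stimulated response elements before the start of these genes.

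Promoters of the interferon genes are shown first because this list was lower in the carbon metastasis while the lists of lung epithelium and vessels were higher. The sequences are the 250 bases before the RefSeq gene start on GRCm38.p6, 5′ to 3′ on the strand of the gene, and capitals mark the core of an interferon-stimulated response element, which is GAAA, any 2 bases and GAAA again, on either strand. Igtp (chr11:58199306-58199555, plus strand), Irgm2 (chr11:58214727-58214976, plus strand), Gbp3 (chr3:142559794-142560043, plus strand) and Cxcl10 (chr5:92348890-92349139, minus strand) were lower in the carbon metastasis, and Rsad2 (chr12:26456453-26456702, minus strand) was higher.
Igtp: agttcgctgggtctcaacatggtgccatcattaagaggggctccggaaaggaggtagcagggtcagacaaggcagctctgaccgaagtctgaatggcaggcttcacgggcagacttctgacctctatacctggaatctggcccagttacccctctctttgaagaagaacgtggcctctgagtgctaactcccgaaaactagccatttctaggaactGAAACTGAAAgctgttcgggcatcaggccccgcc
Irgm2: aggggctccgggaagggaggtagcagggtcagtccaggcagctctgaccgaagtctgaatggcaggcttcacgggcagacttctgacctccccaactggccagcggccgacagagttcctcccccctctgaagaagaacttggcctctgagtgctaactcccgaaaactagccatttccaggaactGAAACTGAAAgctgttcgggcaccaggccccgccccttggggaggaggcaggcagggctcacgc
Gbp3: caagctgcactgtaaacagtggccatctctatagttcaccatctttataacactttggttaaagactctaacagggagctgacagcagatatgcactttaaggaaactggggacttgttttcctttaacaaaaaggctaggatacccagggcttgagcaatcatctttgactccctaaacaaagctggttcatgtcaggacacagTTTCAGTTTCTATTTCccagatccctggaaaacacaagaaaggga
Cxcl10: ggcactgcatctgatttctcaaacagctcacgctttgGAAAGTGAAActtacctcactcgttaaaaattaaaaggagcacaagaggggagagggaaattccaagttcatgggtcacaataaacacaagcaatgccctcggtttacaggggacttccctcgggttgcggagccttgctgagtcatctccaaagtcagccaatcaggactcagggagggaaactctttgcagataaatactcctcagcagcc
Rsad2: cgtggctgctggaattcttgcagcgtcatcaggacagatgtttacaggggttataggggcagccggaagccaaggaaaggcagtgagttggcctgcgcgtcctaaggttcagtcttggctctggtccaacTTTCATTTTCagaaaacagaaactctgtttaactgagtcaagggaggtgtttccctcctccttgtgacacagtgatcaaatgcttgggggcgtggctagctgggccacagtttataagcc
The match started 34 bases before the gene start in Igtp, 64 in Irgm2 and 213 in Cxcl10. In Gbp3 there were 2 overlapping matches on the opposite strand, the further one 45 bases before the start, and Rsad2 had its match on the opposite strand 120 bases before the start. Of 26 measured interferon response genes with a promoter sequence at hand, 14 had a match in this window, against 3.46% of all 27025 genes with one. By call, 7 of 10 genes called lower, 1 of 1 called higher and 6 of 15 not called had one, so a match occurred in genes of all 3 kinds. MEF2 sites (CTA, any 4 bases, TAG) were found before 1 of 22 skeletal muscle genes, against 3.7% of all genes, and forkhead sites (TGTTTAC) before 3 of 14 alveolar genes and 1 of 14 airway genes, against 3.54%. By call, forkhead sites lay before 1 of 9 alveolar genes called higher and 2 of 5 not called. For airway genes the numbers were 0 of 9 and 1 of 5. A match describes letters in the window and not a bound site.

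Interferon response genes were high in both carbon RNAs and higher in the primary. Over the unirradiated primary the list had a median of 2.63 in the carbon metastasis and of 3.47 in the carbon primary. Of 34 measured members, 13 were called lower in the metastasis and 1 higher, and the list's median difference was -0.98, against 0.036 for all genes. All 34 were well above background in both carbon RNAs on every array.

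The interferon-inducible GTPases, which attack the vacuoles of intracellular parasites, were lower in the metastasis. Igtp stood at 4.23 and 4.26 in the carbon metastasis (carbon RNA in Cy5, then in Cy3; log2 over the unirradiated primary), against 7.04 and 6.83 in the carbon primary. Both arrays of the primary lay above both of the metastasis, and the difference was -2.69 ± 0.18, a 6.47-fold lower level. Iigp1, a second GTPase of this family, stood at 5.04 and 5.12 in the metastasis, against 7.41 and 7.47 in the primary, a difference of -2.36 ± 0.02. Irgm1 and Irgm2, regulators of the same GTPases, differed by -1.50 ± 0.01 and -1.56, and Ifi47 by -2.12 ± 0.08. By the second route the differences of Igtp and Iigp1 were -3.48 and -2.78.

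The guanylate-binding proteins, larger GTPases that coat such vacuoles, were lower as well. Gbp6 had ratios of 1.82 and 1.98 in the carbon metastasis, against 4.71 and 4.87 in the carbon primary, and a difference of -2.89. Gbp3 had ratios of 3.20 and 3.23, against 5.50 and 5.53, and a difference of -2.30 ± 0.01. Gbp7 and Gbp2 differed by -2.30 ± 0.17 and -1.94 ± 0.02. Members of these families resemble each other, and an array probe may read several of them.

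The chemokines of the interferon response, which draw T cells, went the same way. Cxcl10 stood at 3.21 and 2.79 in the carbon metastasis, against 5.74 and 5.30 in the carbon primary, a difference of -2.52 ± 0.02. Cxcl11 stood at 1.72 and 1.56, against 3.56 and 3.32 (-1.80 ± 0.06), and Cxcl9 at 3.55 and 3.59, against 5.25 and 5.07 (-1.59 ± 0.15). Ifng itself, the cytokine that induces these genes, had ratios of 1.13 and 0.94 in the metastasis, against 2.34 and 2.40 in the primary, and a difference of -1.34 ± 0.17; its second measured probe gave -1.10.

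Not every member of the list was apart. Ifit3, an antiviral protein, had ratios of 2.83 and 2.78 in the metastasis, against 2.93 and 2.88 in the primary, a difference of -0.10 that became -1.02 by the second route. Isg15, a ubiquitin-like modifier, Mx1 and Mx2, antiviral GTPases, and Usp18, the protease that removes Isg15, differed by -0.51 ± 0.12, -0.56 ± 0.18, -0.42 ± 0.27 and -0.38 ± 0.20 and were not called. Rsad2, the antiviral protein viperin, was the member called higher, at 3.08 and 2.68 in the metastasis, against 1.35 and 1.21 in the primary (1.60 ± 0.18). Other probes of Rsad2 gave 0.40 and 0.50, and the mean of all its probes, 0.83, was not called.

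**Figure D1:**
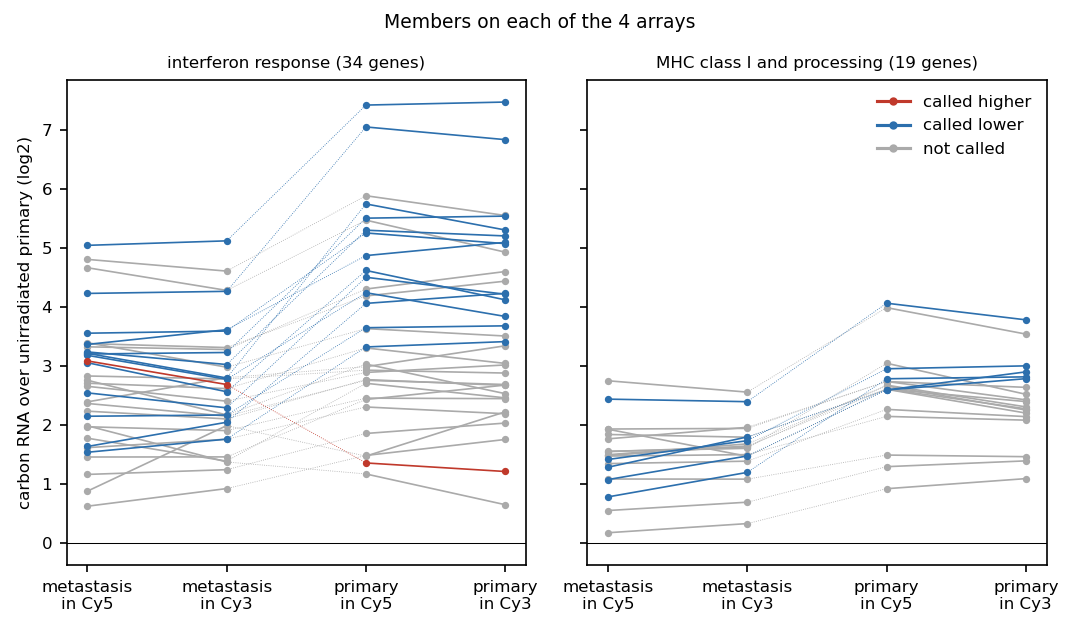
Log2 ratio over the unirradiated primary (vertical axis) of each measured interferon response gene (left, 34 genes) and MHC class I gene (right, 19 genes) on the 4 arrays, with the carbon metastasis in Cy5 and Cy3 left of the carbon primary in Cy5 and Cy3. Solid lines join the 2 arrays of one RNA and dotted lines the 2 RNAs, colours give the call, and the blue lines of genes called lower climb from the metastasis arrays to the primary arrays, Iigp1 reaching 7.47.

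MHC class I genes, which show peptides from inside the cell to T cells, and the genes that prepare these peptides had a median difference of -0.87, and 5 of 19 were called lower in the metastasis and none higher. Tap1, a subunit of the peptide transporter, stood at 0.78 and 1.20 in the carbon metastasis, against 2.78 and 2.81 in the carbon primary, a difference of -1.81 ± 0.27. Its partner Tap2 differed by -1.41 ± 0.15, and the immunoproteasome subunit Psmb9 by -1.51 ± 0.17. Differences of all 19 members lay below 0, from -1.81 to -0.39. Among the class I chains themselves, H2-T22 and H2-T10 were called, at -1.40 ± 0.19 and -1.20 ± 0.15, and H2-K1 and H2-D1 differed by -0.64 ± 0.23 and -0.82 ± 0.21. Chains of this family are close in sequence, and their probes may read more than one. B2m, the light chain they share, differed by -0.69 ± 0.12.

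MHC class II genes, which dendritic cells, macrophages and B cells use to present antigen, had medians over the unirradiated primary of 2.45 in the carbon metastasis and 2.82 in the carbon primary, and none of 10 was called. Cd74, the chain that guards the peptide groove, stood at 3.03 and 2.96 in the metastasis, against 3.01 and 2.82 in the primary. H2-DMa, which helps load the peptide, lay furthest from 0, at -0.86 ± 0.13, and was called lower with Aquantile channels (-1.06) and with scaling between arrays. T and natural killer cell markers had a median difference of 0.14, whose sign turned with Agilent's processed log ratio, the authors' value table and scaling between arrays. Of 17 measured markers 2 were called higher and 2 lower. Klrd1 (CD94), a receptor of natural killer cells, differed by 1.46 ± 0.11 and Il7r, the receptor of naive and memory T cells, by 1.13 ± 0.11, although its other probe gave 0.25. Gzmb, a granzyme of killer cells, differed by -1.11 ± 0.11, and Ifng was the other marker called lower. Cd3d and Cd3g, chains of the T cell receptor complex, differed by 0.64 ± 0.16 and 0.49 ± 0.01. The summed normalized signal of the 17 markers was 6103 and 5203 in the metastasis and 5729 and 5338 in the primary, which overlap. Bright markers weigh most in such a sum, and Ifng and Gzmb were called lower. The part of T cells in the interferon difference was not tested.

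Genes of lung epithelium were among the highest of the comparison. Of 18 alveolar markers 12 were called higher in the carbon metastasis and none lower, with a median of 3.26, and of 21 airway markers 14 were higher and none lower, with a median of 2.66. Requiring both carbon RNAs above background left medians of 0.95 and 0.92, since 7 alveolar and 10 airway markers were well above background in the carbon primary on neither array. In a bulk RNA, more cells of a type and more RNA per cell cannot be told apart.

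Sftpd, a collectin of surfactant, stood at 7.68 and 7.21 in the carbon metastasis, against 0.27 and 0.15 in the carbon primary, a difference of 7.24 ± 0.25 or 151-fold. Scgb3a2, a secretoglobin of airway cells, stood at 7.99 and 8.15, against -0.03 and -0.11, where the signal of the primary did not pass the background flag. Scgb1a1, the secretoglobin of club cells, stood at 5.94 and 5.52, against 0.21 and -0.01 (5.63 ± 0.14), and its primary signal passed the flag on 1 of 2 arrays. In each of the 3 both values of the carbon primary lay near 0, the level of the unirradiated primary. Foxa2, a transcription factor of lung epithelium, was higher by 3.87 ± 0.10. Aqp5 and Pdpn, found in alveolar type I cells and in other epithelia, stood at -0.08 and -0.67.

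Several of these genes were not well above background in the carbon primary on either array, so their difference has only a lower bound there. The bounds come from the normalized channels. They set the metastasis against the primary's own dim signal or, where higher, the lowest signal well above background on that array. For Scgb3a2 and Sftpa1 it was the primary's own signal. Scgb3a2 was at least 483-fold higher in the carbon metastasis, Sftpa1, a surfactant protein, at least 487-fold, Sec14l3, a lipid carrier of airway cells, at least 167-fold, and Sftpc, the surfactant protein of type II cells, at least 6785-fold. The alveolar type I cell genes Ager and Cldn18 were at least 81.7-fold and 65.6-fold higher and Nkx2-1, a transcription factor of lung epithelium, at least 9.76-fold. These bounds exceed the folds from the ratios, 282 for Scgb3a2, 31.5 for Sftpa1, 95.7 for Sec14l3, 35.2 for Sftpc, 20.3 for Ager, 21.8 for Cldn18 and 7.09 for Nkx2-1. Other probes of Sec14l3 gave log2 differences of 1.51 to 3.55.

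The gap between bound and ratio lay in the other channel of the metastasis arrays. Before normalization, Sftpc gave 458200 and 312200 scanner units above local background in the carbon metastasis RNA, and the unirradiated primary on the same 2 arrays gave 4256 and 68720. On the arrays of the carbon primary, where the irradiated RNA gave 5.07 and 7.84, the same unirradiated RNA gave 12.8 and 11.9. For Scgb1a1 the unirradiated primary gave 1172 and 4006 units on the metastasis arrays and 10.3 and 24.3 on the primary arrays. The unirradiated primary, which the subtraction takes to be equal on all 4 arrays, was thus not equal for these genes. After normalization it was over 1 higher (log2) on the metastasis arrays for 28 of 16178 genes, of which 27 were called higher, and over 1 lower for 9, of which 5 were called lower, and over all genes the shift had an SD of 0.165. Among the 20 highest named genes the shift exceeded 1 in 10 and reached 7.64 for Sftpc, where the orientations also differed most (5.14 ± 1.27). Among the 20 lowest it exceeded 1 in size in none but was not absent. It was -0.97 for Apol10a, -0.78 for Sectm1b and -0.64 for Igtp, against 0.07 for Myl1 and 0.01 for Lrrc15. The own channels of Apol10a, Sectm1b and Igtp differed by -4.10, -3.42 and -3.34. Where the shift has the sign of the difference, the ratio understates the difference between the RNAs' own channels, which was 12.78 for Sftpc and 10.30 for Scgb1a1. Where the signs are opposite, the ratio overstates it. Krt16 had a shift of -0.34, a ratio difference of 1.96 and an own-channel difference of 1.62. For Krt18 these were -0.27, 1.17 and 0.91. The cause of the shift was not tested.

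**Figure D2:**
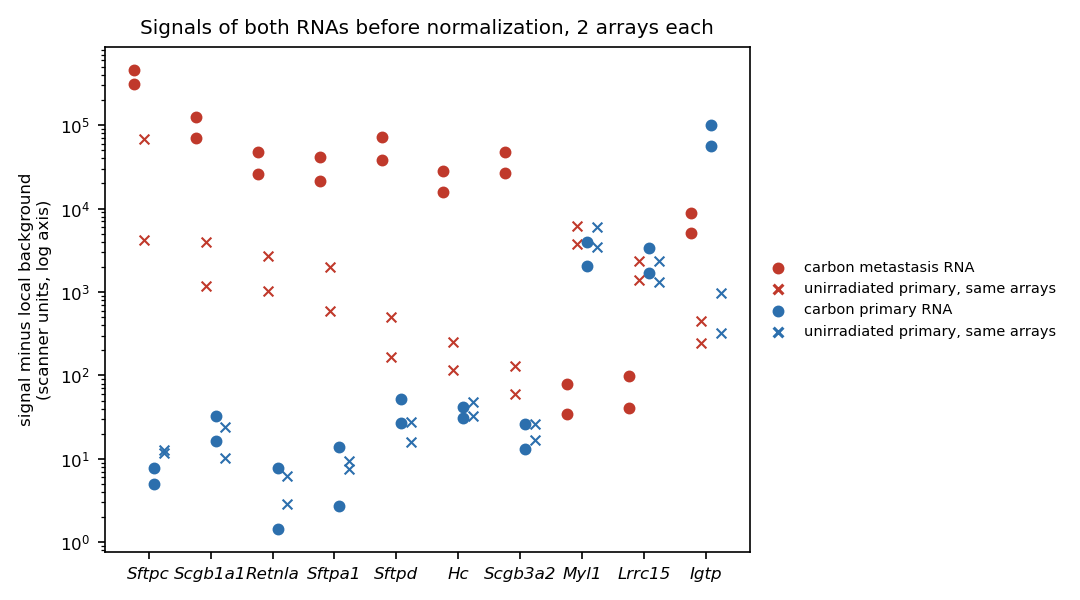
Signal minus local background before normalization (log axis, scanner units) for 10 genes, with 2 points for the 2 arrays of each RNA. Circles are the carbon metastasis (red) and the carbon primary (blue), crosses the unirradiated primary on the same arrays in the same colour, and the red crosses of Sftpc, Scgb1a1, Retnla and Sftpa1 lie far above the blue crosses, while those of Myl1 and Lrrc15 lie level with them.

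Beside the lung epithelium, markers of vessels and of several blood cells were higher in the carbon metastasis. Of 21 endothelial markers 14 were called higher and none lower (median 1.88). Calcrl, a receptor of adrenomedullin and related peptides, stood at 2.74 and 2.75 in the metastasis, against -0.51 and -0.74 in the primary (3.37 ± 0.17). Cldn5, the tight junction protein of endothelium, stood at 1.64 and 1.83, against -1.37 and -1.30 (3.07 ± 0.09), and Vwf, the clotting factor that platelets bind, differed by 2.87 ± 0.09 with its other probe at 2.03. Pecam1 and Tie1 passed in 1 orientation alone and averaged 1.01 and 1.03.

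Of 21 macrophage markers 9 were called higher and none lower, with a median of 0.99. Marco, a scavenger receptor of alveolar macrophages whose primary signal passed the background flag on 1 of 2 arrays, was higher by 4.60 ± 0.04, Clec7a, the receptor for fungal glucans, by 3.45 ± 0.03, and Ear1, a ribonuclease, was at least 31.1-fold higher (19.7 by the ratio). Mrc1, the mannose receptor, Chil3, a chitinase-like protein, Itgax, an integrin, Trem2, a lipid receptor, and Mpeg1, the pore protein perforin-2 found on most macrophages, were higher by 2.28, 2.08, 1.27, 1.25 and 1.19. Chil4, a relative of Chil3, was the other marker called, and its primary signal did not pass the background flag. The other measured probes of Itgax, Trem2 and Mpeg1 gave 0.34, 0.88 and 0.35, below the size for a call. Cd68 and Adgre1, also found on most macrophages, were not called and differed by 0.99 and 0.43, and the complement C1q chains C1qa, C1qb and C1qc by -0.39, -0.36 and -0.41.

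Of 13 neutrophil markers 8 were called higher, with a median of 1.49. Lcn2, an iron-trapping protein also made by epithelia, differed by 2.80 ± 0.03. S100a9, a subunit of calprotectin that keratinocytes can also make, stood at 0.72 and 1.07 in the metastasis, against -1.68 and -1.15 in the primary (2.31 ± 0.13), so that the primary lay below the unirradiated tumour and the metastasis above it. B cell and plasma cell markers were higher in 7 of 11 cases (median 1.70): Jchain, which joins antibody units, was at least 53.9-fold higher (17.9 by the ratio), and Cd79b, a chain of the B cell receptor, differed by 3.38 ± 0.04. Of 4 measured red blood cell genes 3 were higher, the haemoglobins Hbb-bt by 3.25 ± 0.01 and Hba-a1 by 2.47 ± 0.07 and Alas2, which starts haem synthesis, by 1.84. Lpl, a lipase of fat, muscle and macrophages, differed by 3.51, but Adipoq, the hormone specific to fat cells, did not pass the background flag in the metastasis, and 3 of 8 adipocyte markers were called higher.

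Cytokines and chemokines were mixed, with 15 of 33 called higher and 2 lower. Ccl6, a chemokine of myeloid cells, stood at 4.90 and 4.78 in the metastasis, against -0.41 and -0.33 in the primary (5.21 ± 0.15, 37.1-fold). Il33, an alarm cytokine stored in nuclei of barrier and vessel cells, stood at 3.80 and 3.30, against -0.27 and -0.88 (4.13 ± 0.07), and Cxcl15, a chemokine of lung epithelium, was at least 114-fold higher (20.2 by the ratio). Cx3cl1, the membrane-bound chemokine fractalkine, was called lower with Cxcl11, at -1.18 ± 0.10. In the complement list, Hc, which encodes component C5, was 110-fold higher (6.78 ± 0.17), and the pore component C6 was at least 6.88-fold higher (5.83 by the ratio). C1s1, a protease that starts the classical pathway, differed by -1.90 ± 0.05, with another probe at -2.16, and Serping1, which inhibits that protease, stood at 1.76 and 1.59, against 2.86 and 2.68 (-1.10). The list as a whole had a median of -0.13, with 7 of 21 higher and 2 lower.

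**Figure D3:**
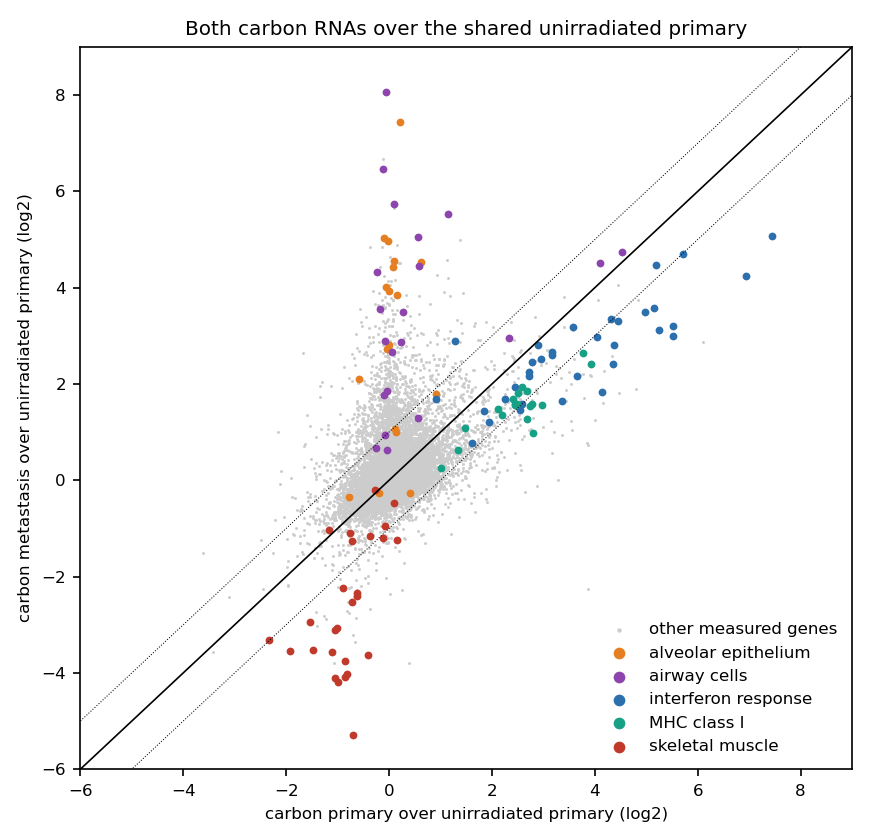
Log2 ratio of the carbon metastasis (vertical axis) and of the carbon primary (horizontal axis) over the unirradiated primary they share, for all measured genes (grey) and 5 gene lists (colours). Solid and dotted lines mark equal ratios and a difference of 1 either way: lung genes reach up to 8.07 near 0 on the horizontal axis, interferon genes lie at the right and mostly below the line of equality, and muscle genes lie at the bottom.

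Skeletal muscle genes were lower in the metastasis. Of 27 measured, 18 were called lower and none higher, with a median of -1.73. Myl1, a myosin light chain of fast fibres, stood at -5.40 and -5.17 in the carbon metastasis, against -0.81 and -0.60 in the carbon primary, the second lowest difference of the comparison at -4.58 ± 0.02; its other probe gave -1.27. Actn3, the actinin of fast fibres, stood at -4.02 and -4.17, against -0.92 and -0.79 (-3.24 ± 0.20). Tnnt3 and Tnnc2, troponins of fast fibres, differed by -3.20 ± 0.16 and -2.91 ± 0.13, the myosin heavy chains Myh4 and Myh8 by -3.21 ± 0.52 and -3.04 ± 0.37, and Chrna1, the acetylcholine receptor of the muscle membrane, by -3.22 ± 0.17 with another probe at -0.58; its metastasis signal passed the background flag on 1 of 2 arrays. The summed normalized signal of the list was 12180 and 10914 in the metastasis, against 42520 and 42254 in the primary. The amount of leg muscle in the dissected RNA was not measured, and its part in these differences was not tested.

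Stromal genes divided. Lrrc15, a membrane protein of tumour fibroblasts, stood at -3.78 and -3.82 in the metastasis, against 0.38 and 0.40 in the primary (-4.19 ± 0.04), although its other probe gave -1.13. Postn (periostin) and Thbs2, both matrix proteins, differed by -1.58 ± 0.09 and -1.43 ± 0.09, and Thbs4, a thrombospondin of muscle and tendon whose metastasis signal passed the background flag on 1 of 2 arrays, by -2.71 ± 0.13. Another probe of Thbs4 gave -1.64. Receptors for platelet-derived growth factor, Pdgfra and Pdgfrb, were higher by 1.77 ± 0.05 and 1.59 ± 0.12, as was the small proteoglycan Dcn by 1.64 ± 0.11. The collagen chains Col1a1, Col1a2 and Col3a1 differed by -0.73, -0.42 and 0.60. Over the list, 3 of 23 were higher and 3 lower, with a median of 0.10 that median centring turned to -0.11. Genes of mesenchymal transition and invasion were called higher in 4 and lower in 5 of 25 cases: the metalloproteinase Mmp3 was higher by 1.54 ± 0.01, whereas Mmp13 differed by -1.56, Mmp10 by -1.25 ± 0.06, Mmp2 by -1.12, the transcription factor Twist1 by -1.04 and the matrix protein Tnc by -1.30 ± 0.05, the last with other probes at -1.03 and -0.17. None of 9 smooth muscle markers was called; Myh11, the smooth muscle myosin, stood at 0.99 ± 0.05 and was called higher with an offset of 0 (1.42), with Agilent's log ratio and the value table (1.57 each) and with Cy5 alone (1.02).

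The labels give tumour cells of a squamous cell carcinoma, and the keratinocyte genes of the tumour's own lineage were set beside that label. Of the 30 measured, 28 were well above background on both arrays in the carbon metastasis and 30 in the carbon primary, Krt1 and Dsc3 passing on 1 of 2 metastasis arrays. The summed normalized signal was 1363293 and 1135480 in the carbon metastasis and 1411037 and 1091991 in the carbon primary, and the median difference was -0.12. The alveolar list summed to 833508 and 1389958 in the carbon metastasis and to 102933 and 94532 in the carbon primary. Keratinocyte signal shows that such RNA was present and cannot show that RNA of other cells was absent. Krt5 and Krt14, the keratins of basal cells, differed by -0.36 ± 0.15 and -0.56 ± 0.20. Of the keratinocyte list, 4 were called higher and none lower. Krt16, a keratin of wounded and hyperproliferative epidermis, stood at 0.77 and 0.12 in the metastasis, against -1.27 and -1.76 in the primary (1.96 ± 0.12). Krt19 and Krt18, keratins of simple epithelia such as lung, were higher by 1.61 and 1.17 ± 0.05, as was Sprr1a, an envelope protein, by 1.14 ± 0.05. For Krt19 both carbon metastasis values were 0.16 and both carbon primary values -1.45, so the primary lay below the unirradiated tumour.

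**Figure D4:**
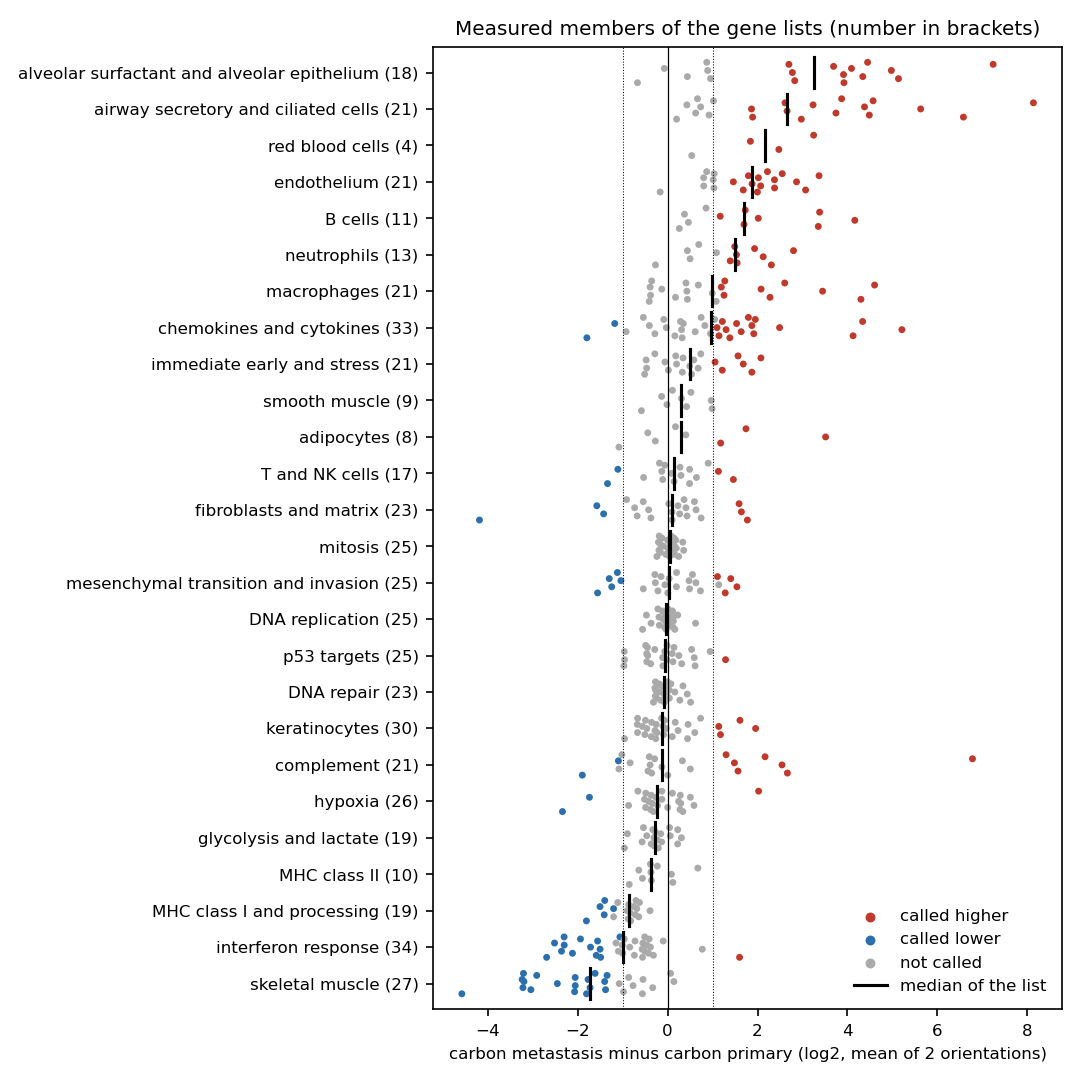
Difference of the carbon metastasis minus the carbon primary (log2, mean of the 2 orientations) for each measured member of the 26 gene lists, ordered by list median (black bar). Red members were called higher, blue lower and grey neither, and dotted lines mark a difference of 1; medians run from 3.26 in the alveolar list to -1.73 in the skeletal muscle list.

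Genes of tumour cell growth showed small differences. None of 25 mitosis genes, 25 replication genes and 23 repair genes was called, with medians of 0.05, -0.03 and -0.07, and the sign of the mitosis median turned with median centring and that of replication with the scanner log ratio, the value table, scaling and the second route. The members furthest from 0 were Birc5, the mitotic protein survivin, at 0.36 ± 0.03, Rrm2, a subunit of ribonucleotide reductase, at 0.62 ± 0.10, and Ercc1, of nucleotide excision repair, at 0.51 ± 0.04. Of 25 targets of p53 1 was called, Trp53i11 at 1.29 ± 0.01, while Cdkn1a, the cell cycle inhibitor, differed by -0.02. Glycolysis genes had a median of -0.28 and none of 19 was called, Pfkm, the muscle isoform of phosphofructokinase, lying furthest away at -0.96 ± 0.08. Pfkm was called lower with Agilent's log ratio and the value table (-1.08 each), median centring (-1.19), Aquantile (-1.09) and Cy3 alone (-1.02). Hypoxia genes had a median of -0.24. Egln3, a prolyl hydroxylase, was lower at -1.21 and -1.04 in the metastasis, against 0.51 and 0.71 in the primary (-1.74 ± 0.02), and Pfkfb4, a regulator of glycolysis, was higher by 2.02 ± 0.02. Ddit4, an inhibitor of mTOR, passed the rule too but its 2 arrays in the metastasis disagreed, at -1.64 and 0.75, against 1.91 and 1.89 in the primary (-2.34 ± 1.71).

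Immediate early and stress genes were called higher in 6 of 21 cases and lower in none (median 0.49). Atf3, a stress transcription factor, stood at 1.34 and 1.17 in the carbon metastasis, against -0.69 and -0.95 in the carbon primary (2.07 ± 0.06). Dusp1, a phosphatase of stress kinases, stood at 1.20 and 0.84, against -0.62 and -1.09 (1.87 ± 0.08), and the heat shock protein gene Hspa1a at 2.52 and 2.40, against 0.83 and 0.72 (1.68 ± 0.02; 0.72 to 1.56 with other probes). Fos and Jun themselves differed by 0.58 and 0.53 and were not called.

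Some of the lowest genes outside these lists stood near the unirradiated tumour in the metastasis and far above it in the primary. Pip, a secreted protein of glands, had ratios of 0.03 and 0.00 in the carbon metastasis, against 3.26 and 3.33 in the carbon primary (-3.28 ± 0.07), and its metastasis signal passed the background flag on 1 of 2 arrays. Plppr4, a lipid phosphatase-related membrane protein, had ratios of 0.93 and 0.63, against 3.95 and 3.75 (-3.07 ± 0.07). Gsta3, a glutathione transferase, had ratios of -0.12 and -0.38, against 2.70 and 2.57 (-2.89 ± 0.10). Tcaf2, which regulates an ion channel, Aoc1, a diamine oxidase, and Sectm1b differed by -2.98 ± 0.13, -2.59 ± 0.06 and -2.65 ± 0.03. Another probe of Sectm1b gave -1.50. Apol10a and Apol6, apolipoprotein L genes, differed by -3.14 ± 0.26 and -2.75 ± 0.06, Apol6 with ratios of 1.32 and 1.17, against 4.12 and 3.88. The lowest difference of all belonged to a feature that the array file calls Mela and for which the RefSeq table holds no entry, singled out after its values were seen. It stood at -2.25 and -2.28 in the metastasis, against 4.02 and 3.73 in the primary, a difference of -6.14 ± 0.19.

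Further genes at the top of the comparison were S100g, a calcium-binding protein (5.56 ± 0.04), Clic5, a chloride channel protein (4.98 ± 0.10), both with a primary signal that passed the flag on 1 of 2 arrays, the eosinophil-type ribonuclease Rnase2a (4.74 ± 0.05) and Retnla, a resistin-like protein of airway cells and macrophages (at least 605-fold, 24.5 by the ratio). Lrp2, the endocytic receptor megalin, was at least 34.7-fold higher (23.4 by the ratio) with other probes at 0.37 and 3.14, and Scgb3a1, a further secretoglobin, at least 82.8-fold higher (23.8 by the ratio). Tspan1, a tetraspanin, and Sec14l4, a relative of Sec14l3, had ratios above 0 in the primary as well. Tspan1 stood at 5.53 and 5.52 in the metastasis, against 1.17 and 1.12 in the primary, and Sec14l4 at 5.00 and 5.09, against 0.47 and 0.64.

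A set of genes stood far from the unirradiated primary in both carbon RNAs at nearly the same ratio. Cyp2f2, a cytochrome P450 known from airway club cells, had ratios of 4.89 and 4.57 in the carbon metastasis and of 4.68 and 4.39 in the carbon primary, unlike the other club cell gene Scgb1a1; by the second route its difference was -0.60 in place of 0.20. Aldh1a1, a retinal dehydrogenase, had ratios of 4.74 and 4.30 in the metastasis and of 4.24 and 3.94 in the primary. Wfdc18, a small secreted protein with a whey acidic protein domain, had ratios of 4.14 and 3.99 in the metastasis and of 4.43 and 4.47 in the primary, but with scaling between arrays its difference was -1.09 in place of -0.39, and it was called lower. Oas1f, H2-DMb1, Phf11d and Lgals3bp also belonged here, with ratios between 2.46 and 3.63. The amino acid transporter Slc7a3 was low in both, at -3.62 and -3.52 in the metastasis and -3.44 and -3.42 in the primary. The 2 ratios of each gene share the unirradiated RNA, so their likeness is not independent evidence.

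The same subtraction can be made for the RNAs after 8 Gy of gamma rays, and the unirradiated metastasis was set directly against the unirradiated primary. All 3 contrasts use the unirradiated primary RNA, so only their values are set side by side, and none was tested against another. With the slides numbered 1 to 3, the carbon contrast used slides 2 and 3 and the gamma contrast slides 1 and 2. The unirradiated contrast used slide 1 alone, so slide and treatment cannot be told apart. The alveolar median was 3.26 after carbon ions, 3.11 after gamma rays and 3.17 without irradiation, and the endothelial median 1.88, 1.76 and 1.92. For the interferon response the median was -0.98 after carbon ions, 0.00 after gamma rays and 3.21 without irradiation, with 13, 1 and 0 of 34 genes called lower and 1, 1 and 34 called higher, where 1.93%, 0.965% and 1.78% of all genes were lower and 6.87%, 8.14% and 10.9% higher. Igtp differed by -2.69, -0.73 and 5.64, and Cxcl10 by -2.52, -0.80 and 5.04. Taken over the unirradiated primary, the interferon list had medians of 3.21 in the unirradiated metastasis, 2.63 in the carbon metastasis and 3.47 in the carbon primary. MHC class II genes had medians of -0.37, 0.85 and 2.60, and T and natural killer cell markers 0.14, 1.38 and 2.11. Hypoxia genes, at -0.24, -0.41 and -1.39, and glycolysis genes, at -0.28, -0.44 and -1.34, lay nearest 0 after carbon ions. Skeletal muscle genes stood at -1.73, -0.48 and -2.52, B cell markers at 1.70, 3.36 and 1.62, and neutrophil markers at 1.49, 1.73 and 3.24. Mela differed by -6.14, 1.47 and -1.45.

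**Figure D5:**
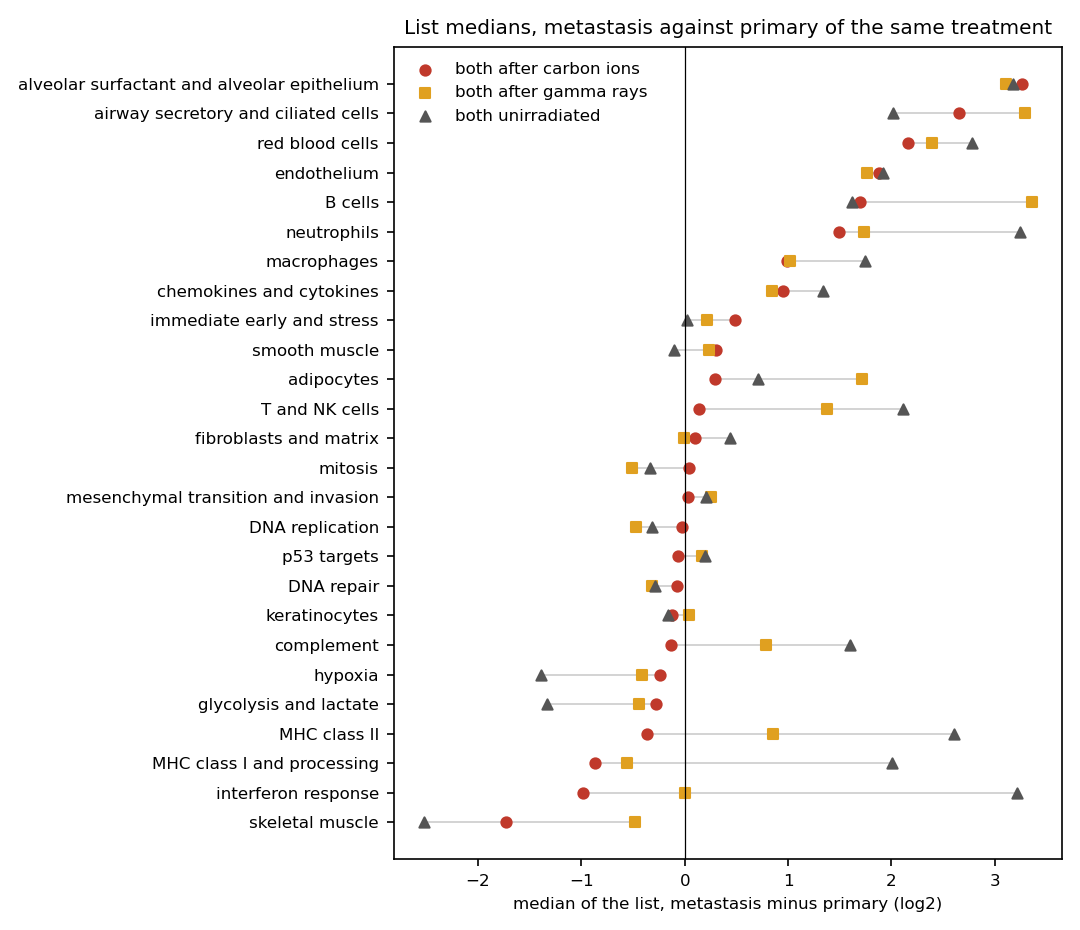
Median of each gene list for the metastasis minus the primary (log2) after carbon ions (circles), after gamma rays (squares) and without irradiation (triangles). The 3 marks lie close together for the alveolar and endothelial lists and far apart for the interferon list, at -0.98, 0.00 and 3.21.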

How the data were processed

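The members and gene lists were chosen with earlier results of these data known. The deposited intensity values are each spot's mean brightness and local background median in both channels, unnormalized, per the file headers. The arrays (design 014868) were quantified with Agilent Feature Extraction 9.1.3.1, protocol GE2-v5_91_0806, per the file headers. Agilent's log10 ratio per spot, deposited with them, sets dye-normalized red over green signal, and the authors' value table equalled it within 0.005, with column medians of 0. Each array held 45018 spots, 43379 of them not controls; 16 to 58 were left out as outliers and none was saturated. The number of arrays limits the precision.

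In R 4.3.3 with limma 3.58.1, background was corrected by normexp with an offset of 50, which pulls dim ratios toward 0, and each array was normalized by loess. Ratios are log2, turned so that the carbon RNA is on top by the dyes in the labels, from the deposited intensity values. Spots of the 41174 probes were averaged, and the brightest probe stood for a gene (8914 genes had several). Lower bounds used channels after loess and Aquantile. Probes were named through RefSeq (GRCm38.p6): 22951 by accession, 6659 by symbol, 3109 by an older symbol; 8455 kept the file's name. Named genes were the 20 highest and 20 lowest called with a RefSeq name, the 3 called members furthest from 0 each way in each of 26 lists (or the furthest member), the 5 called genes with the largest ratio over the unirradiated primary in each carbon RNA, and 10 genes equal in both. List members beyond these were named after their values were seen. Alternatives changed the offset, normalization, filter, probe rule, dye, route and size. The calling script was tested on simulated data. Some results are not reported here.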

Additional observations from a re-analysis of the deposited data

Results flagged for a closer look

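Genes were marked where both orientations of the carbon contrast lay at least 1 below 0 while both arrays of the unirradiated contrast lay at least 1 above 0, each as metastasis minus primary. Over all genes 59 did so, 3 lay the other way round, and between the carbon and gamma contrasts the numbers were 4 and 0. The contrasts share the unirradiated primary RNA and differ in slide, and the difference between them was not tested. Among the GTPases, Gbp6 stood at -2.89 after carbon ions and 3.58 without irradiation, Igtp at -2.69 and 5.64, Iigp1 at -2.36 and 6.11, Gbp3 at -2.30 and 4.33, and Ifi47 at -2.12 and 4.41. Both sides of the contrast differed. Over the unirradiated primary, Igtp stood at 5.64 in the unirradiated metastasis, 4.24 in the carbon metastasis and 6.94 in the carbon primary. Iigp1 stood at 6.11, 5.08 and 7.44 in the same order. The chemokines Cxcl10 and Cxcl11 stood at -2.52 and -1.80 after carbon ions and at 5.04 and 3.77 without irradiation. For antigen presentation, Tap1 stood at -1.81 and 1.68, Tap2 at -1.41 and 1.87, and Psmb9 at -1.51 and 3.06. Ifng stood at -1.34 and 2.89, Gzmb at -1.11 and 1.62, the apolipoprotein L gene Apol6 at -2.75 and 2.70, and the complement genes C1s1 and Serping1 at -1.90 and -1.10 after carbon ions and at 1.78 and 2.02 without irradiation.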

How the results depend on the processing

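None of the 97 named genes that were called changed sign under 13 alternatives, and 10 lost the call under at least 1, among them Il7r, Gzmb, Krt18, Trp53i11, Klrd1, Cidec, Rsad2, Tnc and Ddit4. The single dyes and the changed filters could not turn the sign of a called gene. A call needs 1 sign in both dyes, and a filter only keeps or drops a gene. The stricter filters kept 90 and 82 of the 113 named genes. Of the named genes not called, Myh11 gained a call under 4 alternatives, Pfkm under 5, H2-DMa under 2 and Wfdc18 under 1. The count of genes called lower, 313 of 1425 in all, was 484 with an offset of 0 and 474 with median centring, which moved the median of all genes to -0.16, against 0.036, and the share of calls that were higher to 65.1%, against 78%. With Agilent's processed log ratio 2479 genes were called, 1741 higher and 738 lower, and with the value table of the authors the calls numbered 2476, 1740 higher and 736 lower. A size of at least 1.5 left 686 genes, 565 higher and 121 lower. The interferon median ran from -1.44 to -0.83 over the alternatives and that of MHC class I from -1.18 to -0.73. Leaving out the filter on dim probes gave the same count of 1425 genes. Probes near background, such as those of alveolar and airway genes in the carbon primary, limit what can be measured. No paired analysis was possible because each condition had 1 RNA.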
